A study of Mus musculus with 7 samples.

Results

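GLP knockdown was compared with a control siRNA in C2C12, an immortal line derived from mouse muscle satellite cells, whose myoblasts proliferate in high serum and form multinucleate myotubes when serum is withdrawn. The comparison rests on 4 of the 7 arrays of the study, the 2 titled siGLP and the 2 titled Control, and on all 22180 genes with a single symbol on the array. Where several probe sets stood for a gene, the one with the highest mean signal represented it. All samples were of this line, each on a single-colour Affymetrix whole transcript array, and the labels separate the groups by siRNA alone: a control siRNA, an siRNA against GLP, or, on the other 3 arrays, an siRNA against G9a. The siRNA sequences, the number of siRNAs per gene and the time from transfection to RNA extraction are not stated in the labels. The labels do not state whether the replicates came from separate cultures, and the spread behind every p-value may therefore be technical. With 2 arrays against 2, a permutation test of a single gene cannot go below p = 0.333, so tests come from limma, a linear model that pools the spread over genes, fitted on all 7 arrays.

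GLP, the product of Ehmt1, and G9a, the product of Ehmt2, are related enzymes that add mono- and dimethyl groups to lysine 9 of histone H3 and that work largely as a heterodimer. The mark they lay down on promoters and gene bodies is associated with low transcription, and both proteins also bind it. In the muscle lineage they have been linked to the timing of differentiation, and the study asked whether their roles in myoblasts are distinct. In growing myoblasts, the genes of fusion and contraction are at low or intermediate level until differentiation begins.

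Values are log2 signal after RMA, the authors' background correction, quantile normalization and summary over probes. The median gene had a mean log2 signal of 4.99 over the 7 arrays and the lower quartile of genes was 3.64, and a gene below the median is called dim here, since its signal may not exceed background. The myoblast markers were well above that median: Vim, Des, Myf5, Myod1 and Cdh15 lay at or above the 74.3rd percentile of gene level and Msc at the 67.8th. Markers of other cell types were mixed: the leukocyte marker Ptprc lay at the 10.8th percentile and the epithelial marker Epcam at the 18.3rd, but the macrophage marker Cd68 lay at the 76.8th and the epithelial keratin Krt8 at the 51.1st. The 4 arrays were not equally spread. Over all genes, the SD of the log2 difference from the control arrays was 0.231 and 0.239 for siGLP 1 and 0.208 and 0.199 for siGLP 2. The control arrays differed from each other by 0.186 and the siGLP arrays by 0.203, so siGLP 2 was as close to the controls as to siGLP 1.

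The targeted transcript was lower on both siGLP arrays. Ehmt1 had a log2 signal of 6.71 and 6.73 on the control arrays and 5.73 and 6.13 on the siGLP arrays, and the groups did not overlap. The difference of -0.79 (SE 0.14) left 58.0% of the control level and missed the threshold (limma with Benjamini-Hochberg adjustment, adjusted p = 0.197). Ehmt1 was 18th among all genes ordered from the lowest difference upward. The array with less Ehmt1, siGLP 1, was also the one farther from control over all genes, and without it the difference was -0.59, against -0.98 without siGLP 2. The G9a transcript Ehmt2 stood at 7.56 and 7.46 in control and 7.37 on both siGLP arrays, a difference of -0.14 (adjusted p = 0.789). Among 22 measured H3K9 methyltransferases and partners of G9a and GLP, 20 lay below control and 11 of these without overlap. The median difference was -0.069 in siGLP and -0.087 in siG9a, against the same control arrays. Of all genes, 49.2% lay below control in siGLP, and 16.9% did so without overlap. The members with the smallest p after Ehmt1 were Daxx, a histone H3.3 chaperone (-0.32), Tasor, a subunit of the HUSH silencing complex (-0.33), and Mecom, which encodes a zinc-finger protein with a methyltransferase-like domain (-0.26), none of which passed. Among 12 H3K9 demethylases 8 lay above control, with a median of 0.025. Kdm7a stood highest in the order of p (0.45, limma adjusted p = 0.475). In siG9a, against the same control arrays, Kdm7a lay at 0.64.

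Ei24 was the 1 gene of 22180 that passed, 0.00451% of those tested, and its difference was also the largest below control. Ei24 encodes a membrane protein of the endoplasmic reticulum that is induced by p53 and is needed for the breakdown of autophagosomes. Its log2 signal was 9.08 and 9.02 on the control arrays, 9.13, 8.95 and 9.02 on the siG9a arrays, and 7.62 and 7.69 on the siGLP arrays. All 5 arrays without siGLP lay between 8.95 and 9.13, and both siGLP arrays lay far below them at nearly equal levels. The gene fell to 38.1% of control, by 1.39 on the log2 scale with an SE of 0.081 (Benjamini-Hochberg adjusted p = 0.0140 in the limma fit), and its mean level lay at the 88.0th percentile of genes. The size of the difference stayed between -1.36 and -1.42 when any 1 array was left out, but the call held only without siG9a 1 (adjusted p = 0.0397). It was lost without either siGLP array (0.331 for the first, 0.126 for the second), without control 1 (0.463) or control 2 (0.422), without siG9a 2 (0.0638) or siG9a 3 (0.129), and when only the 4 siGLP and control arrays were fitted (0.595).

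To show what kind of promoter lies at genes that stand out by p or by size of difference, the 250 bases before the RefSeq start of 4 genes are given, 2 that were lower (Ei24 and Eif4ebp2) and 2 that were higher (Ptn and Fgfbp1). They were picked after their values were seen, all 4 lie on the minus strand of the RefSeq GRCm38.p6 assembly, and CG dinucleotides, the sites of DNA methylation, are in capitals.
Ei24 (chr9:36797335-36797584): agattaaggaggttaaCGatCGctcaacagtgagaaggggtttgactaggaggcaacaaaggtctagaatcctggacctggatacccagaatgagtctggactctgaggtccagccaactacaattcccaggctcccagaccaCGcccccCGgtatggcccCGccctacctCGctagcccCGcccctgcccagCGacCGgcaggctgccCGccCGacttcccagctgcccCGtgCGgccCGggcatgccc
Eif4ebp2 (chr10:61452670-61452919): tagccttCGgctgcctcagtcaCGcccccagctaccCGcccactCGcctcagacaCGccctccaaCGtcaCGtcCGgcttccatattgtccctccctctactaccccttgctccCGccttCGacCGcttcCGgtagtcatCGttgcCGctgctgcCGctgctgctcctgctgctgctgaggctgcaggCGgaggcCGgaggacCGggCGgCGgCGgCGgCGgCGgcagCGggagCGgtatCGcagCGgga
Ptn (chr6:36810180-36810429): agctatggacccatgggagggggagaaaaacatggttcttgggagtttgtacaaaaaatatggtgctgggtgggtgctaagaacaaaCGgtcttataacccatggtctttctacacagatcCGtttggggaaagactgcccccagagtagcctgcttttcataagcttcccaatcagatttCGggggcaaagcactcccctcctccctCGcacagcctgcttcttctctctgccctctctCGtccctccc
Fgfbp1 (chr5:43981800-43982049): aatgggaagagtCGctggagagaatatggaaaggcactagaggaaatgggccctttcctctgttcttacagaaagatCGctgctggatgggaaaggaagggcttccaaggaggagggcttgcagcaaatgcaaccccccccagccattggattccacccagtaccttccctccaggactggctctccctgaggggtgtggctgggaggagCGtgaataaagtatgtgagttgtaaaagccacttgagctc

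The median window among 32851 RefSeq promoters held 6 CG dinucleotides. The Ei24 window held 14, a number that 29.4% of windows reach, and the Eif4ebp2 window held 28, which 7.61% reach. The Ptn window held 5, a number reached by 55.6% of windows, and the Fgfbp1 window 3, reached by 71.0%. The windows of the 2 lower genes shown lie above the median and those of the 2 higher genes below it. This describes 4 genes chosen after their values were seen, so it cannot relate CG content to the direction of a difference. No measurement of histone marks or DNA methylation was analysed here.

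**Figure D1:**
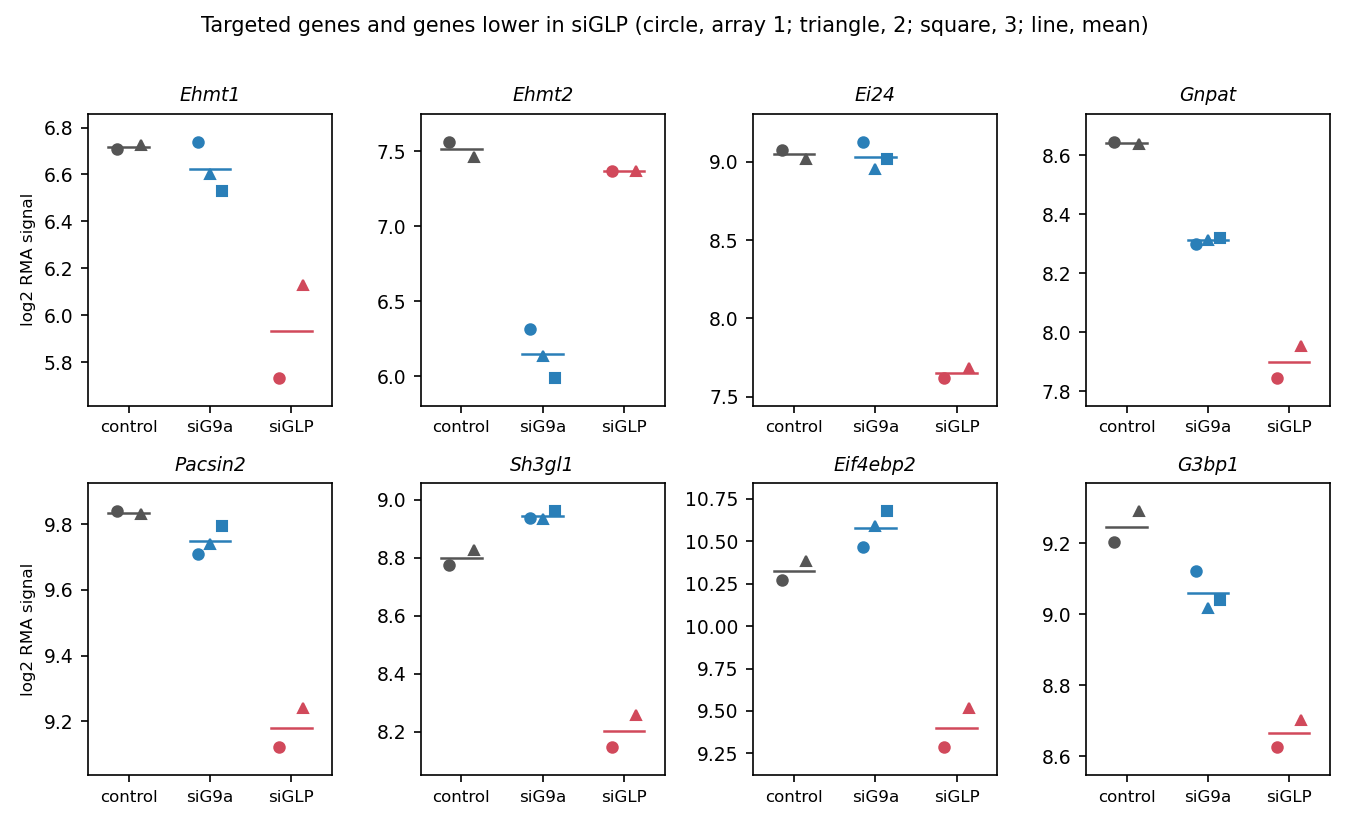
Log2 RMA signal (y axis) on every array for the targeted genes Ehmt1 and Ehmt2 and for 6 genes that were lower in siGLP, in 2 control, 3 siG9a and 2 siGLP arrays (symbols mark the array number and lines the group means; each panel has its own scale). Ei24 stood at 7.62 and 7.69 on the siGLP arrays against 8.95 to 9.13 on the other 5, and for Gnpat, Pacsin2 and G3bp1 both siGLP arrays also lay below all others.

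Besides the 12 largest differences below control, which are described further on and include Ei24, the 8 genes without overlap with the smallest p-values at or above the median level were taken, and none passed. They had differences of 0.48 to 0.74 in size and adjusted p-values of 0.133 to 0.168 (limma, Benjamini-Hochberg). In 8 of 8 siGLP 1, also the farther array over all genes, lay farther from control than siGLP 2. Gnpat, the peroxisomal enzyme that starts ether lipid synthesis, stood at 8.65 and 8.64 in control, 8.30 to 8.32 in siG9a, and 7.85 and 7.95 in siGLP (-0.74). The siG9a arrays lay between the other groups, without overlap with either. Agps, which catalyses the next step of ether lipid synthesis, stood at 8.94 and 9.07 in control and 8.55 and 8.71 in siGLP (-0.38, adjusted p = 0.262), while its siG9a arrays lay at 9.11 to 9.15. Over the whole list of 27 measured ether lipid and peroxisome genes, with these 2 included, 14 lay above control and 13 below, with a median of 0.0001.

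Of these 8 genes, 3 are on the list of BAR domain and endocytosis genes, many of whose products bend membranes. Pacsin2, an F-BAR protein of caveolae and endocytic necks, stood at 9.84 and 9.83 in control and 9.12 and 9.24 in siGLP (-0.65). Sh3gl1, the endophilin A2 gene, stood at 8.78 and 8.83 in control and 8.15 and 8.26 in siGLP (-0.60). Arhgap10, another BAR domain protein gene, stood at 8.85 and 8.98 in control and 8.26 and 8.36 in siGLP (-0.60). In all 3 the siGLP arrays lay below every control and siG9a array. The wider list of 54 BAR domain and endocytosis genes had 25 members above and 29 below control and a median of -0.0040, with 8 higher and 14 lower without overlap (17.4% and 16.9% of all genes). Cltb, a clathrin light chain gene, stood 0.59 above control (adjusted p = 0.168). G3bp1, which nucleates stress granules, lay at 9.21 and 9.29 in control and 8.63 and 8.70 in siGLP (-0.58). The others were Map7d1, a microtubule-associated protein gene (-0.49), Osbpl1a, which encodes an oxysterol-binding protein (-0.48), and Mymk, taken up with the fusion genes.

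The ranked changes were lopsided in number but not in the middle of the distribution. Of all genes 50.6% lay above control and 49.2% below, with a median difference of 0.0015. The siGLP arrays lay entirely above the control arrays in 3853 genes (17.4%) and entirely below in 3739 (16.9%). Adding a difference of at least 1.5-fold left 141 genes higher (0.636%) and 59 lower (0.266%), and 2-fold or more was reached by 26 higher and 4 lower. In 69 of the 141 all siG9a arrays also lay above the same control arrays, and in 4 all lay below. In 31 of the 59 all siG9a arrays also lay below control, and in 3 all lay above. The share of all genes was not counted for siG9a. The 141 and 59 were picked against these same control arrays, which by itself places siG9a more often on the same side. Between siGLP and siG9a, 5 of the 141 and 5 of the 59 passed, against 0.234% of all genes. Both sets were picked by values on the same siGLP arrays, which raises these shares by selection. Before adjustment, 1000 genes above control (4.51%) and 915 below (4.13%) had a p under 0.05. Both 1.5-fold counts changed when 1 control or siGLP array was left out. The higher count was 190 without control 1, 218 without control 2, 139 without siGLP 1 and 318 without siGLP 2. The lower count was 140 without control 1, 116 without control 2, 91 without siGLP 1 and 133 without siGLP 2. With fewer arrays in a group, no overlap is easier to meet, so these counts cannot be set directly against 141 and 59.

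Many of the higher genes had modest signal and a wide gap between the siGLP arrays. Of the 141 higher genes, 36 were still dim in siGLP, and the median control level of the 141 was 5.12, close to the median gene. Of the 59 lower genes, 19 were dim in control, and their median control level was 6.22. The siGLP 1 array was farther from control than siGLP 2 in 124 of the 141 and in 43 of the 59. By the SDs given above it was also the farther array over all genes, and the share of all genes was not counted. These counts are therefore not read as a trait of the changed genes. The median SD between the siGLP arrays was 0.270 in the higher genes and 0.232 in the lower ones, against 0.0730 over all genes. The SD between the control arrays was 0.137 and 0.0923 in the same classes, against 0.0655 over all genes.

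**Figure D2:**
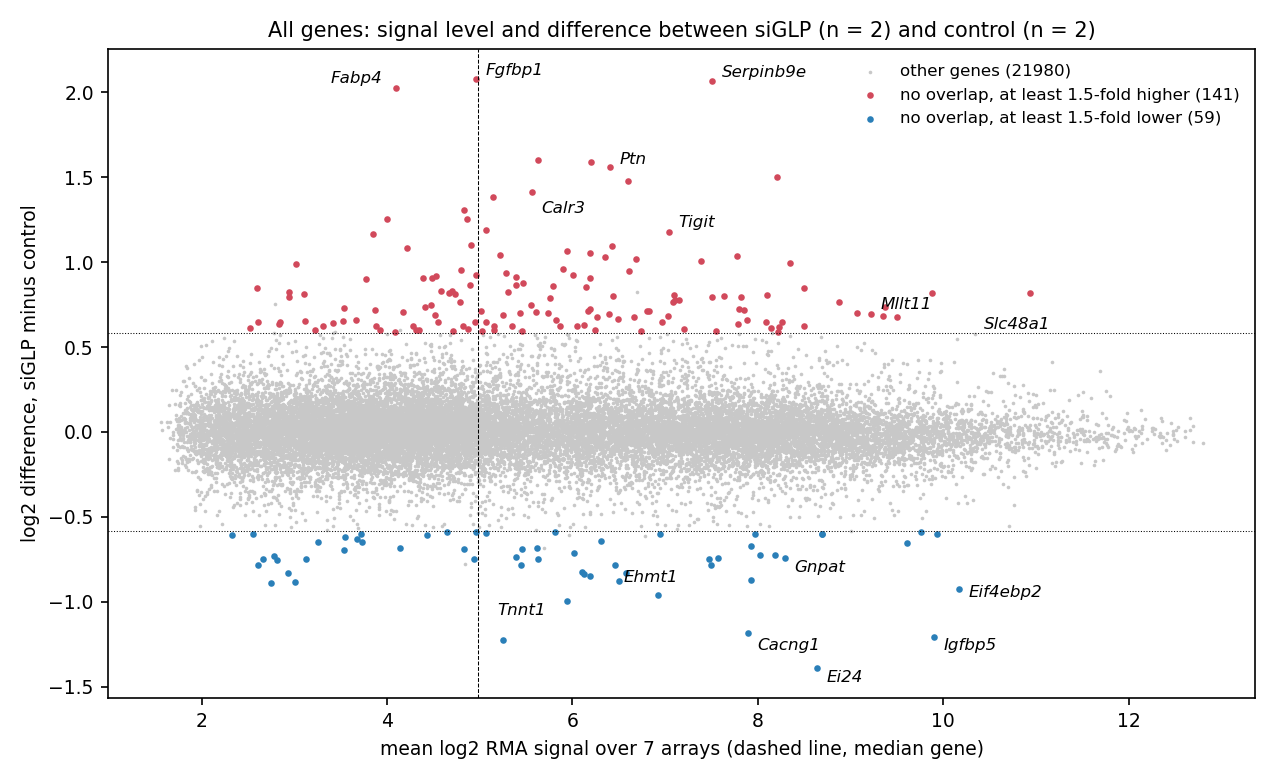
Log2 difference between siGLP and control (y axis, n = 2 arrays each) against mean log2 RMA signal over 7 arrays (x axis), 1 point per gene. Red and blue points are the 141 higher and 59 lower genes without overlap and at least 1.5-fold apart (dotted lines), and the dashed line marks the median gene at 4.99. The largest positive differences lie at low to intermediate signal, and Igfbp5, Eif4ebp2 and Ei24 stand out among bright genes on the lower side.

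The 12 largest differences above control, among genes at or above the median level in 1 of the groups, belonged to genes of various kinds, and none passed (adjusted p = 0.133 to 0.571, limma). Fgfbp1, whose secreted product releases fibroblast growth factors from the matrix, stood at 4.15 and 3.93 in control and 6.85 and 5.39 in siGLP, a difference of 2.08 (SE 0.45; adjusted p = 0.262). Fabp4, the fatty acid-binding protein of adipocytes and macrophages, stood at 3.48 and 3.18 in control and 6.32 and 4.40 in siGLP (2.03, adjusted p = 0.386). Serpinb9e, a serine protease inhibitor gene, stood at 5.74 and 6.41 in control and 8.51 and 7.79 in siGLP (2.07, adjusted p = 0.225). Control arrays were low and dim for Fgfbp1 and Fabp4, and siGLP 1 exceeded siGLP 2 by more than 1 log2 unit in both. Prss37, a serine protease relative of the testis (1.60), and Slc15a3, a lysosomal transporter of histidine and small peptides (1.59), lay next in size, and for both of them siGLP overlapped siG9a.

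Ptn, Calr3 and Tigit stood well above control, with siGLP arrays closer together than those of Fgfbp1 and Fabp4. The SD between the siGLP arrays was 0.48 for Ptn, near that of Serpinb9e (0.51), 0.26 for Calr3 and 0.21 for Tigit. Ptn encodes pleiotrophin, a heparin-binding growth factor, and stood at 6.13 and 5.96 in control, 5.81 to 5.88 in siG9a and 7.94 and 7.27 in siGLP (1.56, SE 0.20; adjusted p = 0.133). Calr3, a calreticulin relative known as a chaperone of the testis, stood at 5.04 and 5.19 in control and 6.71 and 6.34 in siGLP (1.41, SE 0.15; adjusted p = 0.133). Tigit, an inhibitory receptor of T cells and natural killer cells, stood at 6.87 and 6.62 in control and 8.07 and 7.78 in siGLP (1.18, SE 0.18; adjusted p = 0.183). In these 3 genes the siG9a arrays overlapped the control arrays or lay below them, and both siGLP arrays stood above all others. The remaining 4 of these 12 genes were Ly6g, a neutrophil surface protein gene (1.30), Mocos, which encodes molybdenum cofactor sulfurase (1.25), Sprr2k, a cornified envelope protein gene (1.10), and Alox5ap, which helps make leukotrienes (1.10).

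Apart from these, the 8 genes above control without overlap that had the smallest p-values at or above the median level differed by 0.50 to 1.03. They had adjusted p-values of 0.133 to 0.134 (limma). In all 8 the higher of the siGLP arrays was siGLP 1, also the array farther from control over all genes. Slc48a1, which moves heme out of endosomes and lysosomes, stood at 10.05 and 10.07 in control and 10.67 and 10.61 in siGLP (0.58), with siG9a between at 10.28 to 10.36. Mllt11 is a transcription-related cofactor gene first found at a leukaemia breakpoint. It stood at 8.99 and 9.04 in control, 9.01 to 9.04 in siG9a and 9.82 and 9.61 in siGLP (0.70). Me1, the malic enzyme that makes NADPH in the cytosol, stood at 8.61 and 8.65 in control and 9.17 and 9.11 in siGLP (0.50). For Slc48a1, Mllt11 and Me1 both siGLP arrays lay above all others. The secreted superoxide dismutase gene Sod3 lay 0.86 above control and the lipid antigen presenting gene Cd1d1 0.79. For both of these siGLP overlapped siG9a, whose differences from the same control arrays were 0.65 and 0.62. The acyl-CoA synthetase gene Acsbg1 lay 0.69 above control, the metalloproteinase gene Mmp19 1.03 and the hyaluronan receptor gene Layn 0.65.

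**Figure D3:**
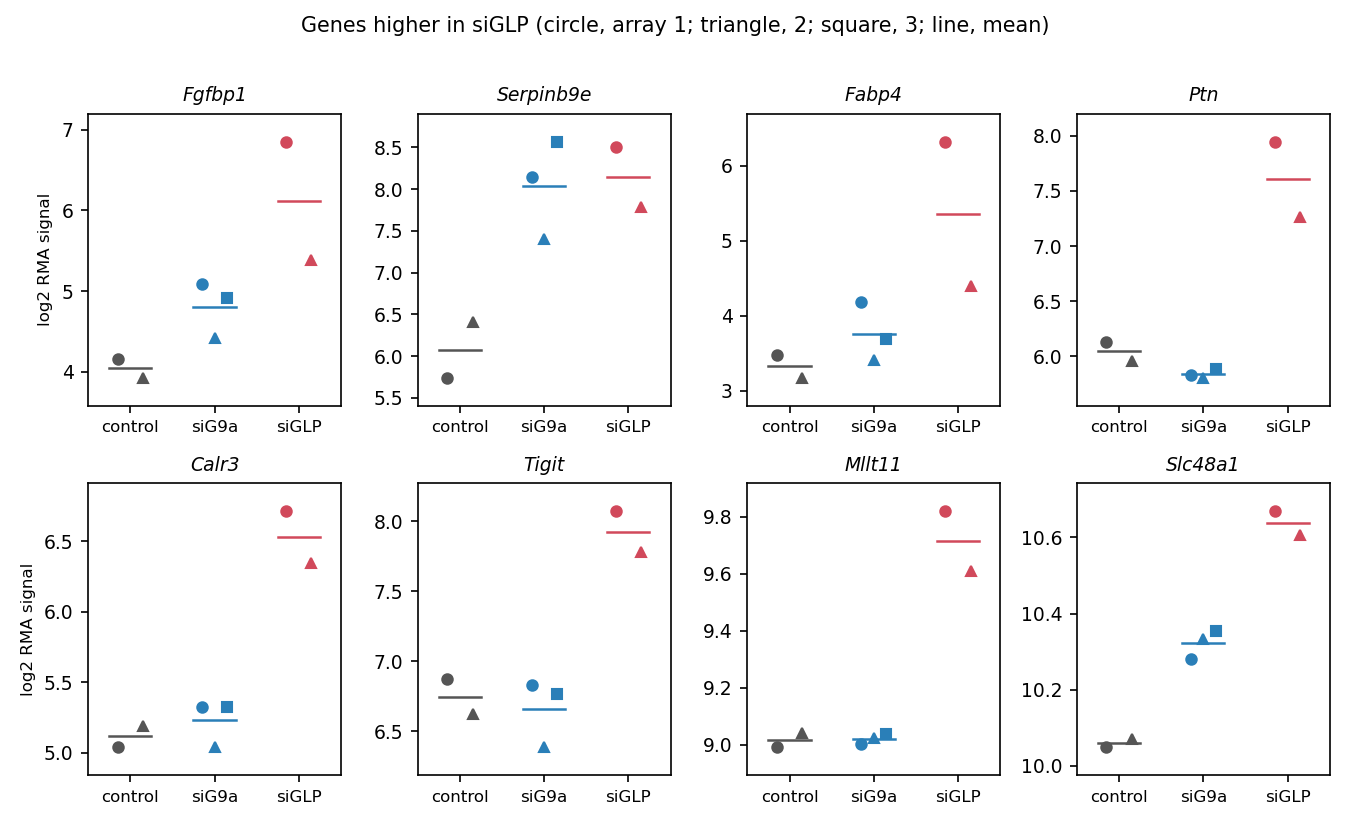
Log2 RMA signal (y axis) on every array for 8 genes that were higher in siGLP, in 2 control, 3 siG9a and 2 siGLP arrays (symbols mark the array number and lines the group means; each panel has its own scale). Fgfbp1 and Fabp4 have widely spaced siGLP arrays (6.85 and 5.39; 6.32 and 4.40), Mllt11 and Slc48a1 have close ones, and the siG9a arrays of Serpinb9e overlap its siGLP arrays.

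Among dim genes, the largest differences above control without overlap included those of epidermal keratins. Krt16 and Krt17, keratins of stressed epidermis, stood 1.25 and 1.09 above control, with control levels of 3.52 and 3.73. Trim43b (1.16), the lectin receptor gene Clec4d (0.92) and Sprr2h (0.91) made up the rest, with adjusted p-values of 0.133 to 0.689 over the 5. The largest differences below control among dim genes were those of AB010352 (-0.88), Bex1 (-0.75), Fpr-rs3 (-0.69), Frg2f8 (-0.62) and Xlr4b (-0.60), with adjusted p-values of 0.184 to 0.559. The control level of Xlr4b was 2.77, and on RMA's scale differences between values this low are compressed. Whether these transcripts were present in control cells cannot be read from these levels.

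The largest differences below control after that of Ei24 included several muscle genes. Igfbp5, a secreted binding protein for insulin-like growth factors, stood at 10.89 and 10.45 in control, 10.24, 9.69 and 9.10 in siG9a, and 9.51 and 9.42 in siGLP (-1.21, adjusted p = 0.384). Cacng1, the gamma subunit of the calcium channel of skeletal muscle, stood at 8.31 and 8.16 in control, 8.01 to 8.36 in siG9a and 7.27 and 6.84 in siGLP (-1.19, adjusted p = 0.168). Chrng, the gamma subunit of the fetal acetylcholine receptor, stood at 6.51 and 6.47 in control and 5.53 and 5.75 in siGLP (-0.85, adjusted p = 0.164). For Cacng1 and Chrng the siGLP arrays lay below all others, while for Igfbp5 they overlapped the siG9a arrays. Tnnt1, the slow isoform of troponin T, lay at 6.43 and 6.77 in control and 5.28 and 5.94 in siGLP (-1.0, adjusted p = 0.262), again overlapping siG9a. Outside muscle structure, Eif4ebp2, which holds back cap-dependent translation by binding eIF4E, stood at 10.27 and 10.38 in control and 9.29 and 9.52 in siGLP (-0.92, SE 0.11; adjusted p = 0.133). The others of the 12 were the lysophosphatidylcholine transporter gene Mfsd2a (-0.96), the zinc-finger factor gene Egr2 (-0.88), Sema6a (-0.87), the carbonic anhydrase gene Car2 (-0.83), the secreted protein gene Ccdc80 (-0.83) and the natriuretic peptide receptor gene Npr3 (-0.82).

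Muscle genes as groups were mixed. No member of the 4 muscle lists passed. Of 32 genes of myoblast fusion and adhesion, 19 lay below control, 12 of them without overlap and 4 above without overlap (16.9% and 17.4% of all genes), with a median of -0.035. Mymk, the membrane protein myomaker that is required for fusion, stood at 6.34 on both control arrays, 5.98 to 6.11 in siG9a, and 5.61 and 5.64 in siGLP (-0.71, adjusted p = 0.133). Dock5, a Rac activator of the fusion machinery, stood at 8.33 and 8.22 in control and 7.57 and 7.63 in siGLP (-0.67, adjusted p = 0.184). The adhesion molecules Cdh15 (M-cadherin) and Cdh2 (N-cadherin) lay at -0.51 and -0.24. Mymk, Dock5 and Cdh15 also lay lower on every siG9a array than on the control arrays, and the siG9a differences were -0.29, -0.37 and -0.51 against the same controls.

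Of 37 genes of the neuromuscular receptor and excitation-contraction coupling, 24 lay below control and the median was -0.028, with 7 lower and 5 higher without overlap, near the shares over all genes (16.9% and 17.4%). Beside Cacng1 and Chrng, Lrp4, the agrin receptor, stood at -0.41 and Srl, a calcium-binding protein of the sarcoplasmic reticulum, at -0.32. Of 50 sarcomere genes, 28 lay above control and 22 below, with a median of 0.013. Myh4 had the smallest p of the list (0.52, adjusted p = 0.134), but its control level of 2.93 is dim. Tnnt1, given above at -1.0, came next in order of p, then Tnni1 (0.27) and Des (-0.20). Of 24 myogenic regulators, 11 lay above and 13 below, with a median of -0.0066. Id2, an inhibitor of myogenic basic helix-loop-helix factors, stood at 7.52 and 7.96 in control and 8.56 and 8.53 in siGLP (0.81, adjusted p = 0.307), Mef2a at -0.29, Eya4 at -0.50 and Eya1 at 0.23.

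Most measured genes of tRNA charging and of serine synthesis lay below control, by small amounts. Of 18 measured aminoacyl-tRNA synthetase genes, whose products load amino acids onto tRNAs, 17 lay below control, 14 of them without overlap, and the median was -0.14. The median difference from control was -0.15 on siGLP 1 and -0.12 on siGLP 2. Gars stood at 11.04 and 10.86 in control and 10.57 and 10.46 in siGLP (-0.43, adjusted p = 0.225), Cars lay at -0.30, Iars at -0.24 and Sars at -0.23. Hars was the 1 member not below control. Of 14 genes of serine synthesis and the folate cycle, 12 lay below control, 8 without overlap, with a median of -0.19. Psph, the last enzyme of serine synthesis, stood at -0.23, and the mitochondrial folate enzymes Mthfd2 and Shmt2 at -0.24 and -0.23. For scale, 16.9% of all genes lay below control without overlap, and no member of either list passed. In siG9a, against the same control arrays, the median was -0.10 for the synthetases and -0.22 for serine synthesis.

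The list of the unfolded protein response and the integrated stress response had 39 measured genes, of which 27 lay below control, 16 without overlap (16.9% of all genes), and the median was -0.086. This list holds targets of ATF4, the factor that also drives synthetase and serine genes when amino acids are short. The secreted glycoprotein gene Stc2 stood at 6.73 and 6.77 in control and 6.34 and 6.36 in siGLP (-0.40, adjusted p = 0.262), and Herpud1, a membrane protein of endoplasmic reticulum quality control, at 8.28 and 8.15 against 7.78 and 7.92 (-0.37, adjusted p = 0.291). Nupr1 lay at -0.32 and the amino acid transporter gene Slc7a5 at -0.21. In siG9a, measured against the same control arrays, Stc2 lay at -0.55, Herpud1 at 0.15 and the list median at -0.023.

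On the other side, genes of heme handling and lysosomes lay mostly above control. Of 29 heme and iron genes, 21 lay above control, 11 without overlap and 1 below without overlap (17.4% and 16.9% of all genes). The list median was 0.060 in siGLP and 0.066 in siG9a, against the same control arrays. Hmox1, heme oxygenase, which opens the heme ring, stood at 10.23 and 10.54 in control, 11.06 to 11.25 in siG9a, and 11.22 and 11.18 in siGLP (0.82, adjusted p = 0.177). Blvrb, a biliverdin reductase acting on the products of heme breakdown, stood at 7.31 and 7.41 in control, 7.32 to 7.57 in siG9a, and 8.35 and 7.96 in siGLP (0.80, adjusted p = 0.197). The siG9a and siGLP arrays of Hmox1 overlapped, while both siGLP arrays of Blvrb stood above every other array. Alas1, the first enzyme of heme synthesis, lay at 0.28, and Bach1, a heme-binding repressor of Hmox1, at -0.36.

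Of 28 lysosome genes, 22 lay above control in siGLP, 12 without overlap and 1 below without overlap. The list median was 0.081 in siGLP (0.051 on siGLP 1 and 0.089 on siGLP 2) and 0.0998 in siG9a, against the same control arrays. Over all genes 17.4% lay above control without overlap. Ctsd, the protease cathepsin D, stood at 10.90 and 11.06 in control and 11.42 and 11.36 in siGLP (0.41, adjusted p = 0.225), Gaa, acid alpha-glucosidase, at 0.73 and the saposin precursor gene Psap at 0.29. In the autophagy list, Ei24 was the 1 of 43 members that passed. The others were spread around 0 (24 above and 19 below in all, median 0.014), and Gabarapl1, an ATG8 relative, stood at 0.49, Tfe3, a regulator of lysosome genes, at 0.22 and Tecpr1 at 0.32. Of 32 p53 targets and CDK inhibitors, Ei24 again was the 1 that passed, and it lay opposite to most: 21 lay above control and 10 below, with a median of 0.059. Ephx1, an epoxide hydrolase, lay at 0.52, Mdm2, which targets p53 for degradation, at 0.34, and the CDK inhibitor gene Cdkn1a at 0.24. In siG9a, against the same control arrays, Ephx1 lay at 0.22, Mdm2 at 0.070 and Cdkn1a at 0.33. The siG9a list medians were 0.12 for autophagy and 0.070 for p53 targets and CDK inhibitors.

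**Figure D4:**
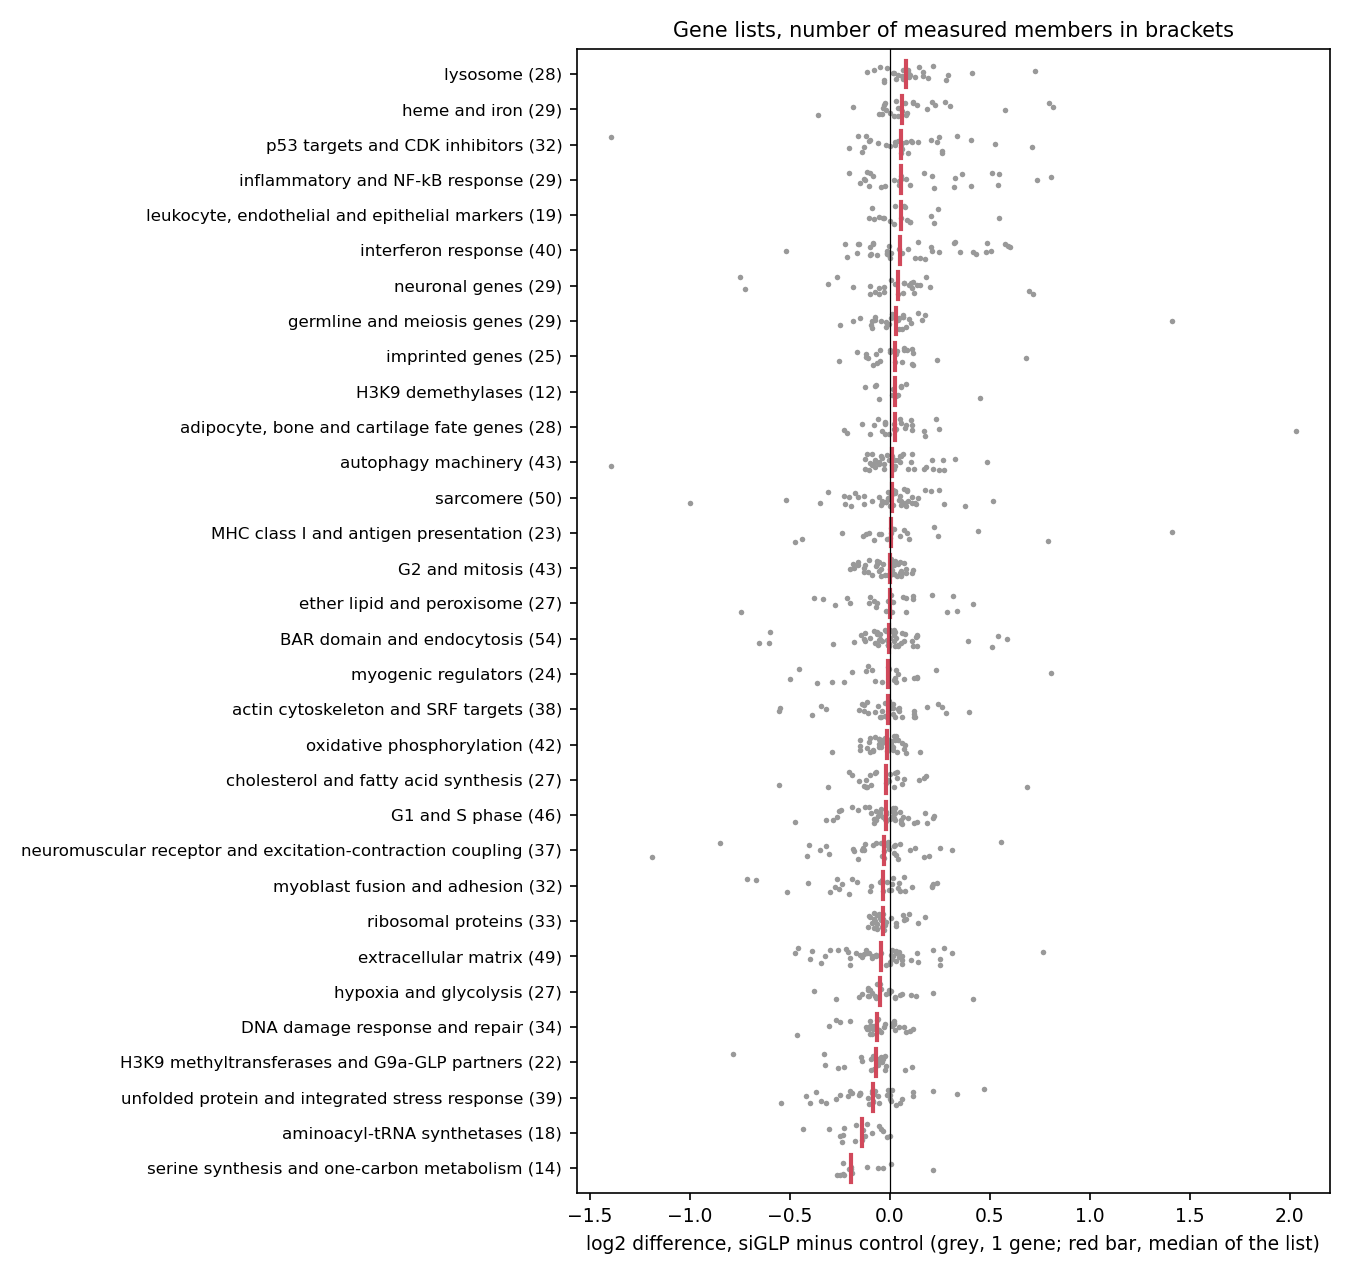
Log2 difference between siGLP and control (x axis, n = 2 arrays each) for the measured members of 32 gene lists (grey points, 1 per gene; red bars, list medians), ordered by median. The medians run from -0.19 for serine synthesis to 0.081 for lysosomes, and single genes such as Ei24 at -1.39 lie far outside the body of their lists.

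Interferon and inflammatory genes differed between the siGLP arrays. Of 40 interferon response genes, 17 lay above and 8 below control without overlap (17.4% and 16.9% of all genes), and the median difference from control was 0.13 on siGLP 1 and 0.0081 on siGLP 2. Eif2ak2, the double-stranded RNA kinase PKR, stood at 7.01 and 7.04 in control and 7.50 and 7.39 in siGLP (0.42, adjusted p = 0.225), Oasl2 at 0.60 and Herc6 at 0.58. The interferon list median was 0.054 in siGLP and 0.099 in siG9a, against the same control arrays. Of the 40 genes, 21 were dim, Oasl2 among them. Trim30a, also dim, lay at -0.52. Of 29 inflammatory genes 19 lay above control, with a median of 0.10 on siGLP 1 and 0.019 on siGLP 2, and the prostaglandin synthase gene Ptgs2 stood at 0.74 (adjusted p = 0.273). In the antigen presentation list of 23 genes, Tapbp, which holds class I molecules at the peptide transporter, lay at -0.48 and H2-T23 at -0.44, opposite to Cd1d1 and Calr3.

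Lists of cell division, repair and matrix genes had small medians. The medians were -0.018 over 46 genes of G1 and S phase, 0.0023 over 43 genes of G2 and mitosis and -0.062 over 34 genes of DNA damage repair. Without overlap, 15 lay lower and 9 higher in the first, 11 and 5 in the second, and 9 and 2 in the third (16.9% and 17.4% of all genes). Among them E2f2 lay at -0.48, E2f3 at -0.32, Bub1b at -0.18, and Rnf8, a ubiquitin ligase at DNA breaks, at -0.46. Of 49 matrix genes 27 lay below control (median -0.041), with Col3a1 at -0.46, and of 38 actin and SRF target genes 20 lay below (median -0.0079), with the focal adhesion gene Vcl at -0.55. Vcl stood at 10.86 and 10.93 in control and 10.22 and 10.47 in siGLP, without overlap (adjusted p = 0.197). In cholesterol and fatty acid synthesis Dhcr7 lay at -0.55 and the list median was -0.11 on siGLP 1 and 0.032 on siGLP 2. Medians for hypoxia and glycolysis (27 genes), oxidative phosphorylation (42) and ribosomal proteins (33) were -0.047, -0.014 and -0.035. Without overlap, 7 lay lower and 3 higher in hypoxia and glycolysis, 14 and 3 in oxidative phosphorylation, and 9 and 3 in ribosomal proteins.

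Lists of genes that belong to other lineages or to the germline, or that are imprinted, also had medians near 0. The medians were 0.033 over 29 germline genes, 0.026 over 25 imprinted genes, 0.039 over 29 neuronal genes and 0.024 over 28 adipocyte, bone and cartilage genes, and 0 members passed. Before adjustment, a p under 0.05 above control was found for 1 germline gene, 1 imprinted gene, 2 neuronal genes and 1 adipocyte, bone or cartilage gene in the limma fit, near the share of all genes (4.51%). Calr3 was the single large value among germline genes and Fabp4 among the fat and bone genes, while Pparg lay at 0.17 and Cebpa at -0.21. The imprinted gene Impact stood at 9.15 and 9.36 in control and 9.99 and 9.88 in siGLP (0.68, adjusted p = 0.184). Among neuronal genes, Uchl1 lay at 0.71, Mllt11 at 0.70 and Gap43 at -0.72.

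Markers of other cell types were examined beside the immune-type genes named above. Of 19 leukocyte, endothelial and epithelial markers, 13 lay above control and 6 below, 16 were dim, and none passed. Their summed linear signal was 719.1 and 767.5 in control, 677.4 to 755.4 in siG9a, and 919.7 and 830.9 in siGLP. Without Krt14 and Cd68, the 17 others summed to 280.0 and 285.7 in control, 270.7 to 303.7 in siG9a, and 302.7 and 280.4 in siGLP, and the groups overlapped. The macrophage marker Cd68 had the smallest p (adjusted p = 0.262) and stood at 7.06 and 7.22 in control, 7.67 to 7.82 in siG9a, and 7.83 and 7.54 in siGLP. The basal keratin Krt14 stood at 8.26 and 8.38 in control, 7.60 to 8.01 in siG9a, and 8.61 and 8.51 in siGLP. The pan-leukocyte marker Ptprc stayed between 2.73 and 2.93 on all 7 arrays. In bulk samples fewer cells of a type and less RNA per cell cannot be told apart, and the part of other cells in the values of Fabp4, Tigit, Ly6g and Alox5ap was not tested.

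The siG9a arrays offered a second reference for GLP, and 52 genes (0.234%) differed between siGLP and siG9a, 30 higher and 22 lower in siGLP (limma, Benjamini-Hochberg adjusted p under 0.05). In 27 of them the siGLP mean lay farther from control than the siG9a mean, 10 on the higher side and 17 on the lower, and in the other 25 the siG9a mean was the farther. Among the 10 were Ptn (1.77 above siG9a, adjusted p = 0.0356), Calr3 (1.30, 0.0356), Tigit (1.26, 0.0485), Mllt11 (0.69, 0.0392) and Gdnf (0.92, 0.0356). Gdnf encodes a neurotrophic factor that muscle makes for motor neurons, and it stood at 5.74 and 5.76 in control, 5.41 to 5.60 in siG9a, and 6.53 and 6.29 in siGLP. The control arrays lay between the knockdowns for Gdnf. Clcf1, a cytokine of the interleukin-6 family, and Atp1b1, a sodium pump subunit, were also higher in siGLP than in siG9a, by 0.70 and 0.61. All 52 calls were lost without any 1 of the 7 arrays (smallest adjusted p = 0.0513 to 0.224, with 2255 to 2962 genes at an unadjusted p under 0.05), and in a fit of the siGLP and siG9a arrays alone (0.124).

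On the lower side, Ei24 lay 1.38 below siG9a (adjusted p = 0.00816) and Eif4ebp2 1.18 below (0.0277). Eif4ebp2 stood at 10.47, 10.59 and 10.68 in siG9a, above both control arrays, and so did Sh3gl1 at 8.93 to 8.96. Tapbp stood at 7.77 and 7.74 in control, 8.28, 8.12 and 8.23 in siG9a, and 7.23 and 7.33 in siGLP, and the difference between the knockdowns was 0.93 in size (adjusted p = 0.0277). Wasf1, a subunit of the complex that triggers branched actin, stood at 7.28 on both control arrays, 7.41, 7.73 and 7.66 in siG9a, and 6.76 and 6.70 in siGLP (0.87 apart, adjusted p = 0.0408). In these 4 genes the 3 groups did not overlap, with control in the middle. Pacsin2, Map7d1, Osbpl1a, the AP-1 subunit gene Fosl2, the Wnt pathway repressor gene Tcf7l1 and the tyrosine breakdown enzyme gene Fah were among the other lower genes, at 0.57 to 0.65 below siG9a. The difference between the knockdowns is tested here, and it does not place either group against control.

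**Figure D5:**
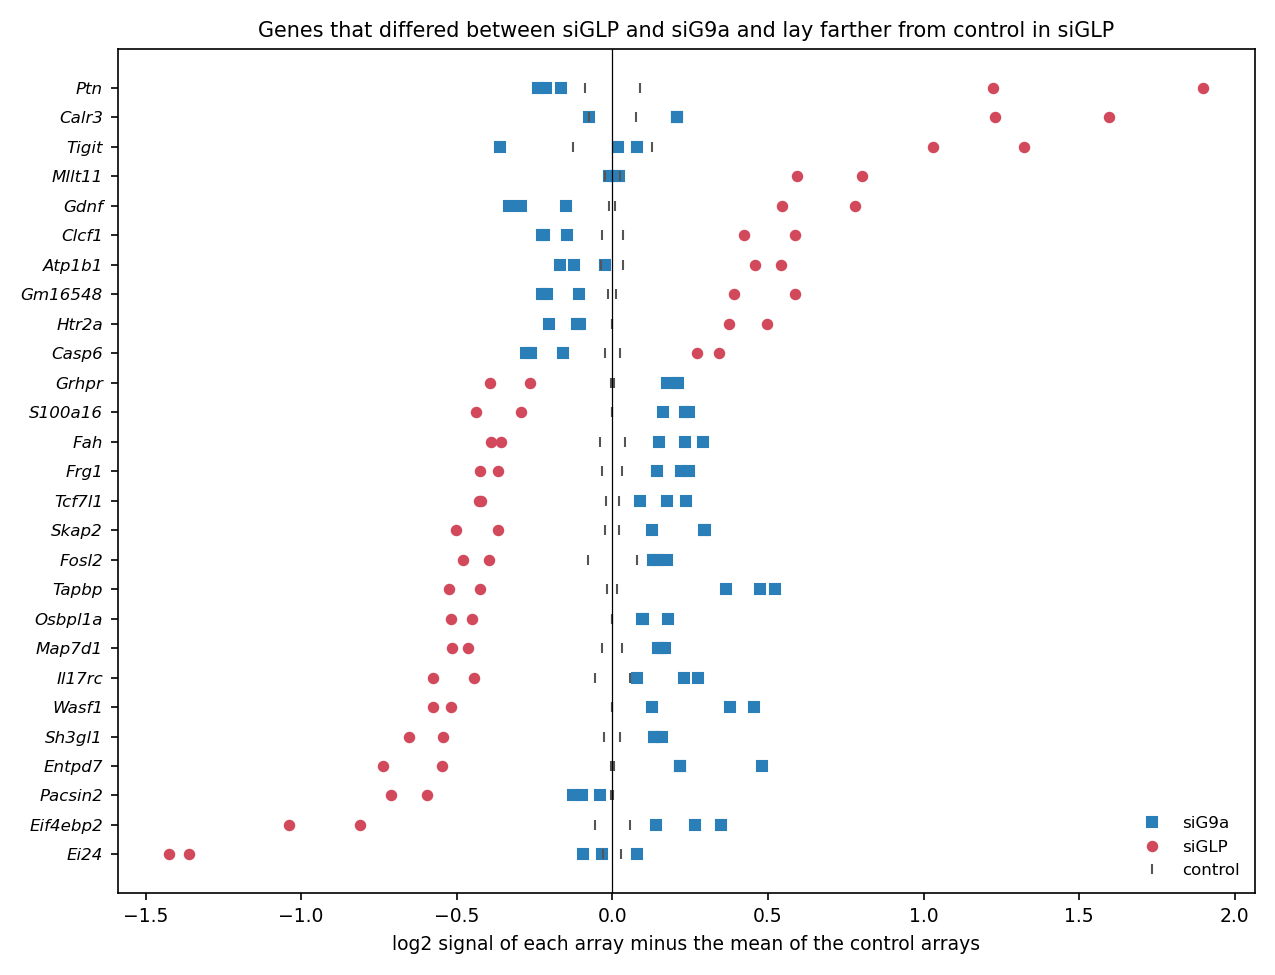
Log2 signal of each array minus the mean of the 2 control arrays (x axis) for the 27 genes that differed between siGLP and siG9a and lay farther from control in siGLP (red circles, siGLP; blue squares, siG9a; ticks, control). Ptn and Ei24 mark the ends, and for Tapbp and Wasf1 the knockdowns lie on opposite sides of control.

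The differences of siG9a and of siGLP from control share the same control arrays, and the values of the genes named above are therefore given side by side without a measure of likeness. Serpinb9e (1.96 in siG9a, 2.07 in siGLP), Prss37 (1.69 and 1.60), Slc15a3 (1.11 and 1.59), Igfbp5 (-0.99 and -1.21) and Tnnt1 (-0.88 and -1.0) lay on the same side of control in both knockdowns. Ptn (-0.20 and 1.56), Calr3 (0.11 and 1.41), Cacng1 (-0.0048 and -1.19) and Ei24 (-0.016 and -1.39) lay near control in siG9a and away from it in siGLP.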

How the data were processed

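RNA from C2C12 cells was hybridised to 7 single-colour arrays, 2 control, 3 siG9a and 2 siGLP, grouped by the siRNA in the labels. The authors deposited a table of log2 values by probe set and array. The submitters' processing notes list RMA and Partek, with no version. The range of the values fits a log2 scale, and RMA compresses differences between dim probe sets. The array annotation's genome build, scan dates and batches are not stated in these sources. The number of arrays per group limits the precision of each value.

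Of 33649 probe sets, 23521 had 1 gene symbol, 1814 several and 8314 none. RefSeq gene numbers (GRCm38.p6) updated 23328 symbols, 193 kept the annotation's, and probe sets with several symbols named no gene. For 1082 genes with several probe sets the one with the highest mean was kept, leaving 22180 genes, unfiltered and not normalized again. Values exactly equal as deposited, with no tolerance, occurred on at least 3 arrays in 4746 genes and on both control arrays in 1458.

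Tests used limma 3.58.1 under R 4.3.3 (lmFit and eBayes, 1 mean per group, all 7 arrays, 4 residual degrees of freedom and 6.89 with moderation). P-values are two-sided with Benjamini-Hochberg adjustment over all genes, and a gene passed under 0.05. The scripts were tested on simulated data. The members, gene lists and rules were chosen with earlier results of these data known. The rule named Ehmt1, Ehmt2, Ei24 and genes past the threshold. Among genes without overlap between siGLP and control, it took the 12 largest differences in each direction and then the 8 smallest p-values in each, where the higher group mean reached the median gene. It took 5 in each direction below that level, and up to 4 members of each list by p. Predicted and unnamed loci, large receptor families and small RNA hosts were passed over. Single genes named beyond the rule (Hars, Bach1 and Ptprc among them) were chosen after their values were seen. The 32 lists hold 1141 symbols, old and new names of some genes both included, of which 1013 were measured, and they are described by counts and medians without a test. Promoter windows come from a RefSeq table in which 32 of the 52 genes ranked highest had an entry. A comparison of promoter CG content between classes of genes was void, since under 80% of genes had an entry. The 18 alternatives varied the arrays fitted, block, variance model, filters, normalization and probe set choice and left out each array.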

Additional observations from a re-analysis of the deposited data

Results flagged for a closer look

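The fit over all 33649 probe sets, including those that name no single gene, passed 3 probe sets in siGLP against control (limma, Benjamini-Hochberg adjusted p under 0.05). The first is that of Ei24. The other 2 lie outside the comparisons above, which use only genes with 1 symbol. Probe set 17261006, which has no gene symbol here, stood at 3.25 and 3.38 in control, 3.87, 4.0 and 3.78 in siG9a, and 4.97 and 4.86 in siGLP. It rose by 1.60 in log2 signal, with an SE of 0.10 (limma adjusted p = 0.0223), and was dim in control. Probe set 17548468, which the annotation gives to several symbols and which is therefore left unnamed, stood at 9.73 and 9.84 in control, 9.92, 9.92 and 9.98 in siG9a, and 8.77 and 8.74 in siGLP. It fell by 1.03 in log2 signal, with an SE of 0.073 (limma adjusted p = 0.0345). On both probe sets the siGLP arrays lay apart from all 5 other arrays.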

How the results depend on the processing

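Ei24 and Ehmt1 stayed below control under all 18 alternatives, while counts of calls changed. The count of genes past the threshold in siGLP against control, 1 as reported, was 0 with only the arrays of the 2 groups (smallest limma adjusted p = 0.595, 1749 genes at an unadjusted p under 0.05) and 0 without variance moderation (0.0960, 1703). It was 23 with trended robust variance, 21 over genes above the median level, and 0 to 1 on leaving out 1 array. The count for siGLP against siG9a, 52 as reported, was 0 with only the arrays of those groups (0.124, 2481), 304 with trended robust variance, 3 without moderation, 350 over genes above the median level, 171 with genes below the 30th percentile left out, and 0 to 0 on leaving out 1 array. Ei24 stayed at -1.39 but lost its call with only the arrays of the 2 groups (adjusted p = 0.595) and without moderation (0.0960), and its value ran from -1.42 to -1.36 on leaving out 1 array. Ehmt1 passed under no alternative. The genes without overlap and at least 1.5-fold apart were 89 higher and 37 lower over genes above the median level. On leaving out 1 array they were 139 to 318 higher and 59 to 140 lower. No overlap is easier to meet with fewer arrays in a group. Over the 159 named genes, 2786 values kept their direction and side of the threshold, and 35 passed where the reported value did not, with 18 genes passing over genes above the median level and 17 with trended robust variance. The sign turned 3 times, on leaving out 1 array: Kdm3a ran from -0.16 to 0.020, Ppargc1a from -0.010 to 0.47 and Cdh5 from -0.020 to 0.43. List medians stayed close in 486 cases and moved further in 90, and 15 lists took the other sign in 37. The causes of these shifts were not tested, except that leaving genes out reduces the number tested.

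Control and siGLP arrays share the numbers 1 and 2. Deviations of same-numbered arrays correlated across genes at 0.103 between control and siGLP, 0.136 and 0.005 between control and siG9a, and 0.172 and 0.138 between siG9a and siGLP, so the numbers were not taken to pair the samples. With the replicate number as a block, 0 genes passed in siGLP against control (smallest limma adjusted p = 0.108, with 2070 genes under 0.05 before adjustment) and 0 against siG9a (0.149, 2620). Ei24 stood at -1.39 under the block (adjusted p = 0.152).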

Other observations

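The targets of NRF2, the factor that drives genes of glutathione, NADPH and quinone metabolism under oxidative stress, lay above control in siGLP. The list was written after Hmox1, Me1, Sod3 and others had been seen to be high, so its counts are a description without a test. Of 28 measured members, 27 lay above control, 20 without overlap and 0 below without overlap, against 17.4% of all genes above without overlap. The median difference was 0.36, with a median from control of 0.29 on siGLP 1 and 0.29 on siGLP 2, so both arrays carried it. Gclm, the modifier subunit of the enzyme that starts glutathione synthesis, stood at 8.95 and 9.18 in control, 9.14 to 9.39 in siG9a, and 9.75 and 9.74 in siGLP (0.68, limma adjusted p = 0.187). Gsr, which regenerates glutathione, stood at 8.93 and 8.96 in control, 8.94 to 9.10 in siG9a, and 9.49 and 9.36 in siGLP (0.48, limma adjusted p = 0.197). For both genes the siGLP arrays lay above all others. Nqo1, a quinone reductase, lay at 0.40, the cystine transporter gene Slc7a11 at 0.47 and Aldh3a1 at 0.52. Txnrd1 (0.078), Gsta4 (0.020) and the factor's own gene Nfe2l2 (-0.028) lay near 0, and no member passed over all genes. In siG9a, against the same control arrays, the median was 0.098.

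Epidermal differentiation genes, a second list written after values were seen, lay above control in 22 of 30 measured members, 10 without overlap and 2 below without overlap (17.4% and 16.9% of all genes), with a median of 0.10. Of the 30, 22 were dim. Beside Fgfbp1, Krt16, Krt17, Sprr2k and Sprr2h, Sprr1b stood at 5.41 and 5.30 in control and 7.10 and 5.74 in siGLP (1.06, limma adjusted p = 0.530). The brightest member Sprr1a stood at 11.01 and 11.47 in control and 11.41 and 11.45 in siGLP, within the spread of the controls. The 2 members below without overlap were Sfn and the dim Flg (-0.20). Sfn stood at 6.54 and 6.56 in control and 6.33 and 6.15 in siGLP (-0.30, limma adjusted p = 0.370). For Ivl, Lor and Krt1 the siGLP and control arrays overlapped.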
